A study of Mus musculus with 38 samples.

Results

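Late gains kept at W12 were the H3K27ac peaks that EpdSCs first showed 6 weeks after SOX9 was switched on and still showed at 12 weeks. They were chosen by the calls themselves: a peak of the W6 list that no peak of the D0, W1 or W2 lists overlapped by even 1 bp, and that a peak of the W12 list did overlap. Of the 30516 peaks at W6, 871 met this rule, which is 2.85%. Another 4671 were also first called at W6 but had no W12 peak, and these late gains not kept were used as the main comparison. Of all 5542 peaks first called at W6, 15.7% were therefore kept, whereas 49.8% of all W6 peaks had a W12 peak. Because H3K27ac calls chose the set, its H3K27ac values are described without a test.

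H3K27ac marks active enhancers and promoters, and H3K4me1 marks enhancers whether they are active or poised. An enhancer can carry H3K4me1 long before it is acetylated. SOX9 is the pioneer factor of hair follicle stem cells, while interfollicular EpdSCs keep the epidermis and normally lack it. AP1, a dimer of FOS and JUN proteins, binds many enhancers of the epidermis and of epidermal tumours.

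EpdSCs came from the back skin of male *K14rtTA; TRE-myc-Sox9* mice, in which the *Krt14* promoter drives a doxycycline (DOX)-dependent activator and a MYC-tagged *Sox9* transgene answers to it. DOX was started at postnatal day 21, and cells negative for CD31, CD45, CD117, CD140a and CD34 and high for CD49f and Ly6A were sorted at D0 and at W1, W2, W6 and W12. The D0 cells carry both transgenes as well, and no skin library without the transgene was analysed here. According to the study's methods, events past W6 were followed in neonatal skin patches grafted onto immunocompromised mice, so that time and graft cannot be told apart at W12. Cultured keratinocytes carried *Sox9* variants: wild type (WT) with and without DOX, ΔHMG, which lacks the DNA-binding domain, and ΔTA, which lacks the transactivation domain. By the labels, W2 replicate 1 was pooled with both W12 replicates for each antibody, while the W6 replicates had pools of their own.

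Each mark had 1 list per time, made by the authors from merged replicates. No spread between animals could be had from them. Intervals around shares therefore cover counting error only, and the regions are not replicates of a time point. The number of H3K27ac peaks per list ran from 29081 to 33985. The background pileup recovered from the fold enrichments ran from 0.299 fragments at W1 to 0.677 at W6. A peak needed a pileup of at least 5 fragments at W6 but 3 or 4 in the other lists. The start sites of all 5 basal markers (*Krt5*, *Krt14*, *Itga6*, *Itgb4* and *Trp63*) lay within 1000 bp of an H3K27ac peak at every time. Of 43 markers of immune, endothelial, mesenchymal, melanocytic or neural cells, between 3 and 5 did so in each list. Those present at W6 included *Acta2*, *Cd68*, *Mitf* and *Pecam1*. None of these 43 genes was the gene nearest to a late gain kept at W12, and the part of other cells in the set was not tested.

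The sequences below are the 300 bases around the W6 summit of members with high fold enrichment, printed to show what kind of DNA was gained. They are from the GRCm38 reference, plus strand, in lower case. Capitals mark matches, on either strand, to RUNX (TGTGGT), SOX (ACAATG), AP1 (TGANTCA) or NF-κB (GGAANTTCC). The first 4 had the largest geometric mean of W6 and W12 fold enrichment. *Hsp90b1* is 1 of the 22 members that had no H3K4me1 domain until W6 or W12. This peak held a start site of *1810014B01Rik* and lay 19801 bp from that of *Hsp90b1*. Its domain was called at W12 alone, as for 2 of the 22. *Pdcl2* was the strongest member with RUNX and SOX matches.
Adgrb1, chr15:74595561-74595860: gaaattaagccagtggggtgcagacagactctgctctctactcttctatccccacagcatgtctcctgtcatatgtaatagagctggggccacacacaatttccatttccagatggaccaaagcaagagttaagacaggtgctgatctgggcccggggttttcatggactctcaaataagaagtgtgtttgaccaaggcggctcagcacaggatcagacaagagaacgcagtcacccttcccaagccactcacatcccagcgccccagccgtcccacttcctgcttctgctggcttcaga
4933415F23Rik, chr1:23184764-23185063: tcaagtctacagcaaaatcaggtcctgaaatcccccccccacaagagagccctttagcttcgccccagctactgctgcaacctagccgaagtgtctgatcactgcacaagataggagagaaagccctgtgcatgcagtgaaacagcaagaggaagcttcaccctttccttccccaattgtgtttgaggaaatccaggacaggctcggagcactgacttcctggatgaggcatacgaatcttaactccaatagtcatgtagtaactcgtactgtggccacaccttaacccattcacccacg
Pdcl2, chr5:76327168-76327467: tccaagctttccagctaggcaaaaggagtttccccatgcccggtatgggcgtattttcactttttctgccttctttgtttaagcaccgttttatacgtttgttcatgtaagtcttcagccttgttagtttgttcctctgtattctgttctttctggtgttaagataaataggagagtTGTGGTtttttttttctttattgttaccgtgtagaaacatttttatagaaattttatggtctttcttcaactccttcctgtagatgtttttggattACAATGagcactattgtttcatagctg
Rin2, chr2:145787318-145787617: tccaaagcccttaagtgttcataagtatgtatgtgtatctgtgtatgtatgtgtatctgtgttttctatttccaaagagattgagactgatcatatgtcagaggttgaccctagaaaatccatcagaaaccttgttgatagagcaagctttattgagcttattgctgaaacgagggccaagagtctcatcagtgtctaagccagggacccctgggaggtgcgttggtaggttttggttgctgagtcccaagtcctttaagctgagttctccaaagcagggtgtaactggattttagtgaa
Hsp90b1, chr10:86685340-86685639: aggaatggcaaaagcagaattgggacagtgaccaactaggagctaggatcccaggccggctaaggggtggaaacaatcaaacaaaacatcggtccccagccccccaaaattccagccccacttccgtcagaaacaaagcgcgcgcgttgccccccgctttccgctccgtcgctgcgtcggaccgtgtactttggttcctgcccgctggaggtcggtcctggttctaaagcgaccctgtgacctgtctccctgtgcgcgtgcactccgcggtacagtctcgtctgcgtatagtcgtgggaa
Of these 5 windows, that of *Pdcl2* alone held a match, 1 to RUNX and 1 to SOX.

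Late gains kept at W12 were mostly weak, narrow peaks. Their W6 fold enrichment, the ratio of the summit to its local background, had a median of 5.37 (lower and upper quartile 4.17 and 5.96, range 2.30 to 19.1). The median of the whole W6 list was 6.56, and 16.2% of members lay above it. In pileup, 752 members could be read, with a median of 8 fragments and a maximum of 31. The late gains not kept had a median of 7 fragments, the peaks first called at W2 and kept to W12 a median of 9, and the peaks called at all times a median of 19. The members' median width was 455 bp, against 375 bp for the late gains not kept and 1408 bp for the peaks called at all times.

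At W12 the strongest overlapping peak had a median fold of 5.50 (quartiles 4.25 and 6.38, range 3.11 to 18.4). The W12 list had a median of 4.96, and 50.4% of members lay above it. Folds of different lists are ratios to different backgrounds, so a higher fold at W12 is not a higher level. Only 83 of 871 members (9.53%) lay above the median of both lists. A single W12 peak overlapped 860 members, the overlap covered a median of 66.7% of the W6 peak, and the W6 and W12 summits lay a median of 191 bp apart. Among the first-called peaks, those with higher W6 pileup were kept more often: 8.91% at 5 fragments, 14.1% at 6 or 7, 18.5% at 8 or 9 and 26.3% at 10 to 31. Peaks with a longer history were also kept more often. A W12 peak was found for 28.7% of those first called at W2 and 36.3% of those first called at W1. It was found for 65.9% of those already called at D0. These shares by history were not split by pileup, and the part of peak strength in them was not tested.

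**Figure D1:**
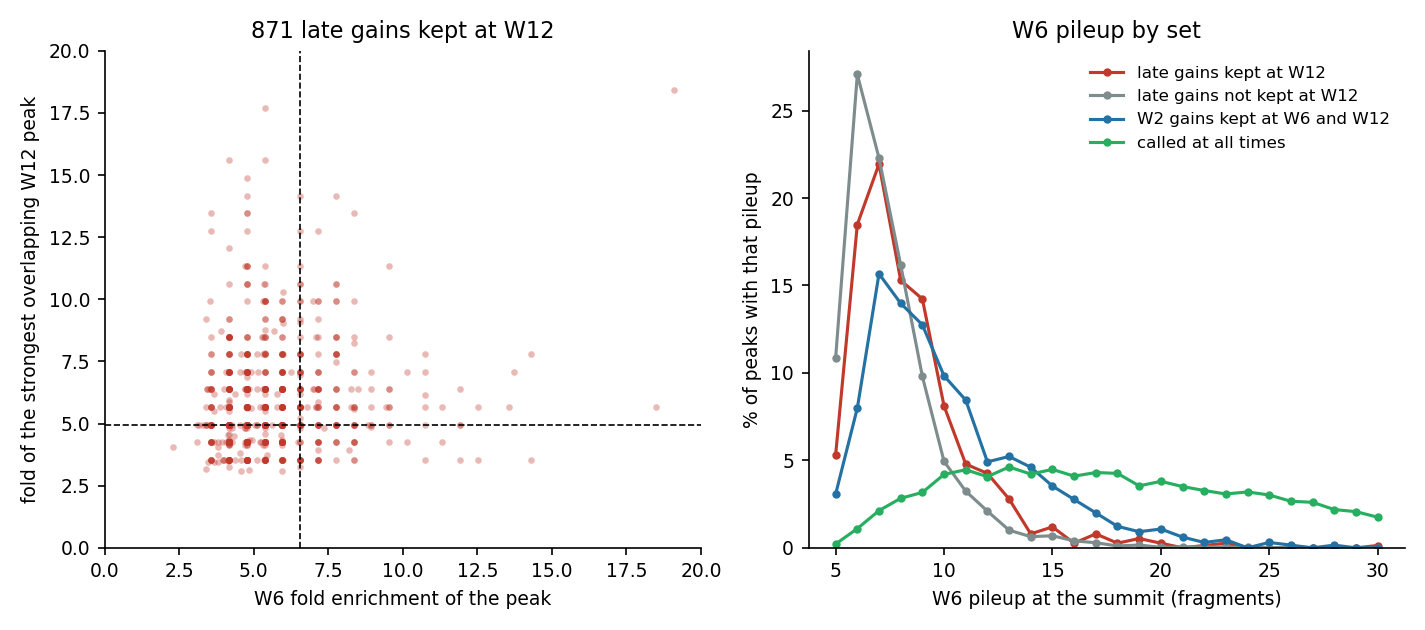
Left, each point is 1 of the 871 late gains kept at W12, with its W6 fold enrichment on the x axis and the fold of the strongest overlapping W12 peak on the y axis, and dashed lines at the medians of the whole lists (6.56 and 4.96). Right, the share of each set of W6 peaks by summit pileup in fragments, for peaks whose pileup could be read (752 members, drawn up to 30 fragments). Most members lie to the left of the W6 median, and their pileups lie near those of the late gains not kept and far below those of the peaks called at all times.

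The absence of an earlier call is bounded by depth. If a member's W6 pileup is scaled by the ratio of the backgrounds, its median becomes 5.92 fragments at D0, 3.53 at W1 and 5.03 at W2. The smallest pileups called there were 4, 3 and 4. The scaled pileup reached that smallest value for 94.7% of the 752 members at D0 and for 76.2% at both W1 and W2, although reaching it does not ensure a call. Many members also had an acetylated neighbour before W6: 36.4% (33.2 to 39.7) lay less than 1000 bp from a D0, W1 or W2 peak, and 59.0% less than 5000 bp. For late gains not kept these shares were 36.8% and 61.6%. With no earlier peak allowed within 1000 bp, 554 members remained.

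At the edge of the rule, the shortest overlaps with a W12 peak were 4 bp (*Hexa*), 6 bp (in an intron of *Commd10*) and 7 bp (*Sipa1l1*), with W6 folds of 6.56, 5.96 and 4.77. Just outside it, W6 peaks in *Crat* and *Jpt2* and beside *Ulk2* touched a W12 peak without sharing a base. Their W6 folds were 4.77, 4.77 and 4.17, hence within the range of the members. Some members named below were also near the edge. Those at *Ereg*, *Runx1* (88969 bp upstream) and *Notch1* shared 22, 25 and 30 bp with a W12 peak. Members at *Ankrd11*, *Klf5* (89881 bp away) and the same one at *Runx1* lay 19, 21 and 51 bp from an earlier peak. For *Wnt5b*, *Myc* (748604 bp away) and *Notch1* this gap was 64, 90 and 95 bp.

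Most members lay in H3K4me1 chromatin before the W6 list in which their H3K27ac was first called, and nearly all of them did so at W6. In D0 cells 84.8% of members overlapped an H3K4me1 domain (95% exact interval 82.3 to 87.2), in W1 cells 85.3% (82.8 to 87.6) and in W2 cells 89.0% (86.7 to 91.0). In W6 cells the share was 96.1% (94.6 to 97.3) and in W12 cells 94.6% (92.9 to 96.0). The intervals at W6 and W12 do not meet those of the earlier lists. They describe the same regions at each time, so this is not a test of change. The D0 list held 87287 domains, against 79556 at W6 and 74316 at W12. The bases covered by the whole lists were not compared, and the part of list depth in these shares was not tested. Over all W6 peaks the shares were 94.7%, 94.4%, 95.3%, 97.4% and 95.2% in the same order. By any overlap, which favours wide peaks, members thus lay below the whole list before W6 and near it at W6 and W12. At the summit itself, where the width of a peak cannot count, the members' shares were 82.9%, 83.9%, 87.4%, 95.2% and 93.3%. Those of all W6 peaks were 85.6%, 86.3%, 90.3%, 91.0% and 85.3%. At the summit members thus lay below the whole list before W6 and above it at W6 and W12. A start site lay inside 29.6% of all W6 peaks but 5.86% of members, and its part in these summit shares was not tested. Members minus late gains not kept was at the summit 1.51 points at W6 (-0.25 to 2.95). At W12 it was 2.85 points (0.82 to 4.56). For peaks called at all times the summit shares were 78.3%, 79.2%, 86.4%, 84.0% and 73.6%. On average 82.0% of a member's bases were covered at D0 and 95.3% at W6.

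The domains around the members were also wider later, as were those around similar sets. Over the summit the domain was 4800 bp wide in the median for D0, 4600 bp for W1 and 5200 bp for W2. It measured 6600 bp for W6 and 6000 bp for W12. At 2000 bp downstream on the plus strand from the summit, 49.0% of members were inside a domain at D0 and 62.9% at W6, whereas at 10000 bp the shares were 33.3% and 38.0%. Around late gains not kept the median went from 5600 bp at D0 to 6600 bp at W6, and around kept W2 gains from 4800 to 7800 bp. Domains of the whole lists did not widen in this order, with medians of 2400 bp at both D0 and W6.

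**Figure D2:**
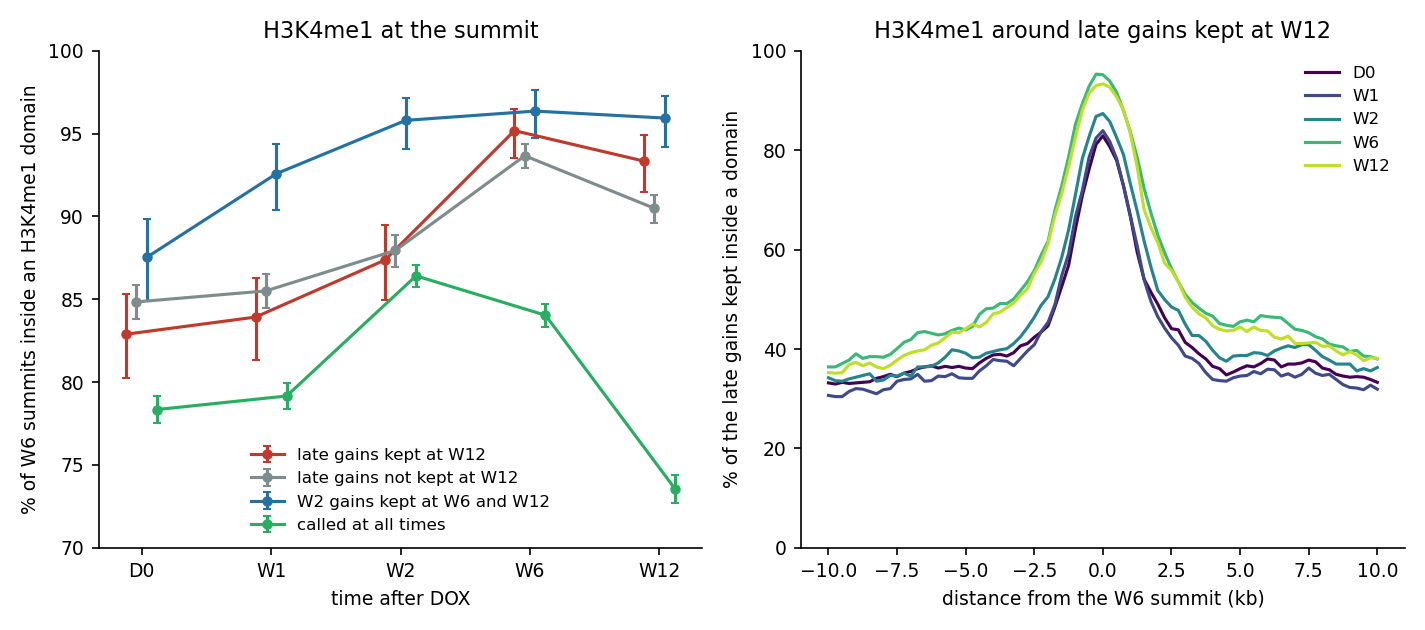
Left, share of W6 summits inside an H3K4me1 domain at each time for 4 sets of W6 peaks, with exact 95% intervals (counting error only; the axis starts at 70%). Right, share of the 871 late gains kept at W12 inside a domain by distance from the summit in kb, 1 line per time. Members rise from 82.9% at D0 to 95.2% at W6, and the W6 and W12 lines stay above the earlier ones out to several kb.

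The late gains not kept were the closest set in H3K4me1. In D0, W1 and W2 cells 86.7%, 87.4% and 89.2% of them overlapped a domain, and in W6 and W12 cells 94.8% and 92.0%. Members minus late gains not kept was -1.90 percentage points at D0 (95% Newcombe interval -4.61 to 0.54) and 1.32 at W6 (-0.30 to 2.61), both with 0 inside. At W12 it was 2.61 points (0.75 to 4.16). With lists cut to equal length the W12 difference was 1.52 (-0.31 to 2.99), and among peaks with a W6 pileup of at least 8 fragments it was -0.25 (-2.75 to 1.59). Among these stronger peaks the members were instead less often in a domain at D0 and W2, with differences of -4.36 points (-8.23 to -1.03) and -3.80 points (-7.25 to -0.95). The peaks first called at W2 and kept differed more, with 94.3% in a domain at W1 and 96.9% at W2, and members minus these W2 gains was -7.94 points at W2 (-10.4 to -5.49).

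In the order D0, W1, W2, W6, W12, 655 of 871 members (75.2%) had a domain at all 5 times. The share was 77.7% of late gains not kept and 88.8% of all W6 peaks. A first domain appeared at W1 for 47 members, at W2 for 39 (4.48%), at W6 for 20 (2.30%) and at W12 for 2 (0.23%). For a first domain at W2 the share exceeded that of the late gains not kept (2.83%) by 1.65 points (0.36 to 3.30). For a domain at all 5 times or at none, and for a first domain at W1, W6 or W12, the interval of this difference included 0. No correction for the number of such groups was made. Only 12 members (1.38%) had a domain at D0 and none at W12, against 2.89% of the late gains not kept, a difference of -1.51 points (-2.30 to -0.41). Over all W6 peaks this share was 2.60%. No domain at any time was called over 24 members (2.76%), against 3.30% of late gains not kept and 1.36% of all W6 peaks. Repeats annotated in lower case in the reference made up 50% or more of the summit window in 18 of these 24 but in only 48 of the 655 with a domain at all times. How well reads map to these repeats was not tested.

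The set gained with H3K4me1 from W6 or W12 on numbered 22 (2.53%), against 2.10% of late gains not kept and 0.67% of all W6 peaks. Of these, 4 are described here. A peak of fold 7.16 at W6 and 4.25 at W12 was nearest to *Hsp90b1*, an endoplasmic reticulum chaperone, held a start site of *1810014B01Rik*, and had an H3K4me1 domain at W12 alone of the 5 times. An intronic peak of *Tmem108* nearest to *Bfsp2*, a lens filament gene, an intronic peak of *Txndc16* and an intronic peak of *Loxhd1* all had a W6 fold of 6.56, with W12 folds of 3.54, 9.92 and 7.08.

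In cultured keratinocytes the members were marked by H3K4me1 more often than the late gains not kept, also without SOX9 induction, with a share near that of all W6 peaks. The culture domains were narrower than those of skin, with list medians of 833 to 930 bp against 2400 to 2800 bp, and their caller is not given separately in the sources used here. Without DOX, 66.4% of members (63.1 to 69.5) overlapped a culture domain, against 55.5% of late gains not kept, a difference of 10.9 points (7.36 to 14.2). The share was 66.6% of all W6 peaks, 66.8% of kept W2 gains and 70.8% of peaks called at all times. With DOX the shares were 66.6% and 57.9% for WT, 63.8% and 51.5% for ΔHMG, and 65.1% and 52.0% for ΔTA. The differences of 8.66 (5.16 to 12.03), 12.4 (8.82 to 15.8) and 13.1 points (9.55 to 16.5) all excluded 0. At the summit the difference without DOX was 9.18 points (5.57 to 12.7). All alternatives that were run on the comparison without DOX gave a positive difference, between 6.15 and 14.8 points.

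Domains seen only with DOX and only without it were about equally many over the members. A WT domain was found with DOX only over 87 members (9.99%) and without DOX only over 85 (9.76%). The peaks first called at W2 and kept had 93 (13.0%) and 29 (4.06%). Members minus these W2 gains was 5.70 points (3.22 to 8.17) for domains seen only without DOX, and -3.04 (-6.27 to 0.11) for domains seen only with it.

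Members, like the kept W2 gains, mostly lay away from start sites. Of 871, 694 (79.7%, 76.9 to 82.3) were more than 2500 bp from any annotated start site, against 71.7% of late gains not kept, 34.0% of peaks called at all times and 54.2% of all W6 peaks. The difference from the late gains not kept was 7.96 points (4.88 to 10.8), and it was 13.7 points (8.83 to 18.2) among peaks with a pileup of at least 8 fragments. Of the kept W2 gains 76.5% were this far from a start site, and members minus these was 3.21 points (-0.87 to 7.33). A start site lay inside 51 members (5.86%), 9.38% of kept W2 gains and 29.6% of all W6 peaks. Members minus kept W2 gains was here -3.53 points (-6.26 to -0.92). By their summits, 454 members were intronic (52.1%), 354 intergenic (40.6%) and 63 exonic (7.23%). The intergenic share was 7.89 points higher than among late gains not kept (4.40 to 11.4). It was 38.9% among kept W2 gains, a difference of 1.71 points (-3.14 to 6.52). Members were found on every chromosome, with 62 on chromosome 1 and 1 on chromosome Y.

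The AP1 motif was more frequent around kept than around lost late gains, and the wide window described here was 1 of the alternatives, chosen for description after its value was seen. Within 500 bp of the summit, 428 of 871 members (49.1%, 45.8 to 52.5) held TGANTCA, against 35.05% of late gains not kept, a difference of 14.1 points (10.5 to 17.7). The same window held it in 33.7% of all W6 peaks. Peaks first called at W2 showed the same contrast: 49.0% of those kept and 34.1% of those not kept at W12 held the motif. Members thus differed from the kept W2 gains by 0.12 points (-4.82 to 5.05) and from those not kept by 15.1 points (11.1 to 19.0). Of the peaks called at all times, 31.7% held it.

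This contrast was weak under the summit itself. In the 300 bp windows fixed as the main setting, 12.5% of members and 9.93% of late gains not kept held an AP1 match, a difference of 2.58 points (0.36 to 5.08). With an overlap of 50% of the shorter interval asked of all calls it was 0.996 points (-1.09 to 3.38). It was larger at some distance from the summit. In the shell from 200 to 300 bp, 15.4% of members held a match, against 8.8% of late gains not kept. From 700 bp on, both sets lay between 5.82% and 7.23%. A match outside the 300 bp window but within 500 bp of the summit was the only kind in 36.6% of members and 25.1% of late gains not kept. The window of 1000 bp is wider than the median member, so that many of these matches lie outside the called peak.

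The members' share was the higher in every class of W6 pileup. With 10 to 31 fragments, 52.7% of 186 members and 29.8% of 520 late gains not kept held AP1 within 500 bp, and with 5 fragments 47.5% of 40 (31.5 to 63.9) and 36.9% of 409 (32.2 to 41.8) did. Among peaks more than 2500 bp from a start site it was 12.6 points (8.56 to 16.7). Members with a culture H3K4me1 domain without DOX held AP1 in 55.2% of 578 cases and those without one in 37.2% of 293, whereas the late gains not kept had 38.9% and 30.2%. These shares were not compared by a test of the interaction.

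**Figure D3:**
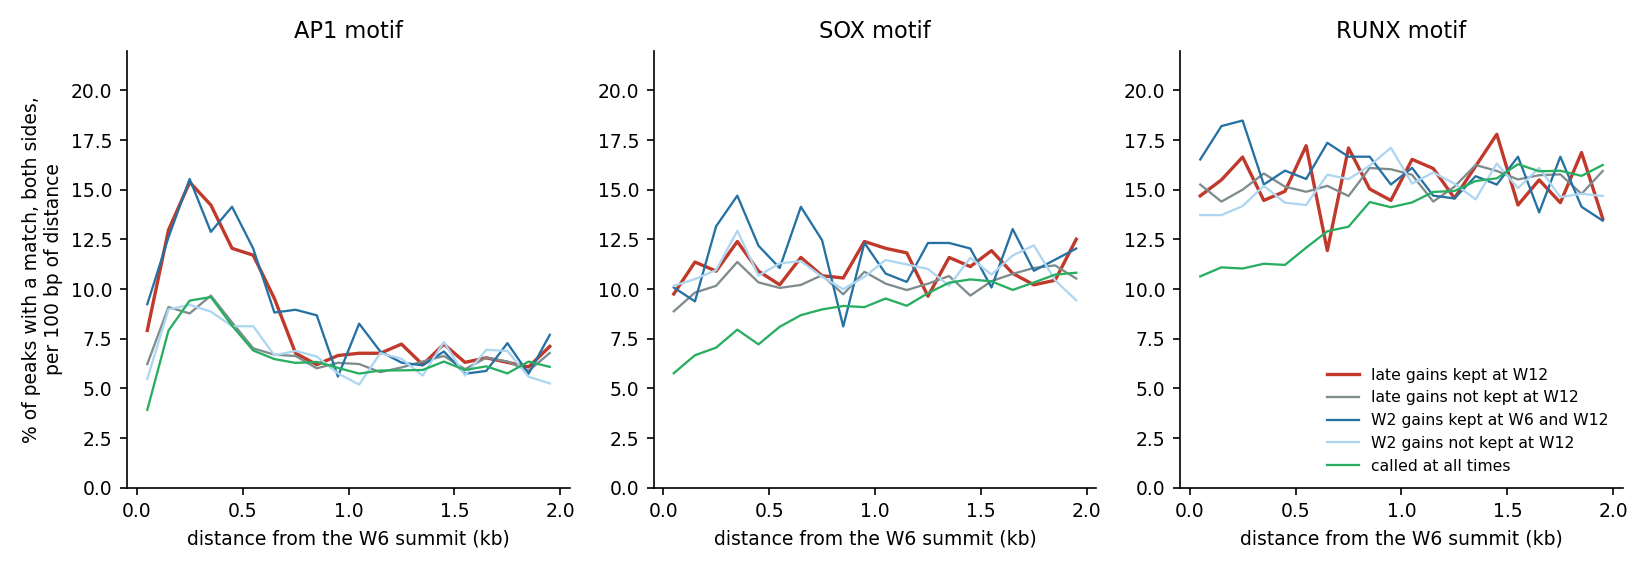
Share of W6 peaks with a motif match in each 100 bp of distance from the W6 summit in kb, both sides together, for AP1, SOX and RUNX, 1 line per set. For AP1 the lines of the late gains kept at W12 and of the W2 gains kept rise to 15.4% and 15.5% at 200 to 300 bp, above both sets not kept. For SOX and RUNX the late sets run together, above the peaks called at all times near the summit.

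The AP1 sites of the 3 strongest members with a match in the flank are printed with 60 bases each, GRCm38 plus strand, the match in capitals. They were chosen after the AP1 values had been seen. The matches lie 456, 323 and 362 bp from the summits at *Adgrb1*, *Rin2* and *Prim2*.
Adgrb1 AP1 flank, chr15:74596138-74596197: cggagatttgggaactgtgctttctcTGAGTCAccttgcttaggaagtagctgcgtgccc
Rin2 AP1 flank, chr2:145787762-145787821: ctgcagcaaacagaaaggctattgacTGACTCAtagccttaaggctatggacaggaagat
Prim2 AP1 flank, chr1:33530062-33530121: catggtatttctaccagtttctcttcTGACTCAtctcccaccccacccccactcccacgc

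SOX and RUNX motifs, like GATA and some other motifs, were more frequent in members than in peaks called at all times. In 300 bp windows the SOX motif was held by 15.2% of members, 13.1% of late gains not kept, 13.9% of kept W2 gains and 8.74% of peaks called at all times. RUNX was held by 20.4%, 21.2%, 23.4% and 15.6%. Over all W6 peaks the shares were 11.1% for SOX and 18.3% for RUNX. Members differed from the peaks called at all times by 6.41 points for SOX (4.12 to 9.003) and by 4.80 for RUNX (2.16 to 7.69). From the late gains not kept they differed by 2.05 (-0.39 to 4.75) and -0.78 (-3.59 to 2.25), intervals that include 0.

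Of the other motifs, TEAD (GGAATG) was held by 11.7% of members and 15.4% of late gains not kept in 300 bp windows, a difference of -3.68 points (-5.92 to -1.17). In 1000 bp windows it turned to 1.91 points (-1.65 to 5.52). The GC box GGGCGG, bound by SP and KLF factors at CpG-rich promoters, was held by 9.30% and 12.03% (difference -2.73, -4.73 to -0.44), and by 31.5% of peaks called at all times. ETS (AGGAAGT) differed by 3.89 points in 1000 bp windows (0.72 to 7.21) and by 1.34 in 300 bp windows (-0.63 to 3.61). NF-κB matches were found in 3 members (0.34%). The mean GC content of the 300 bp window was 48.8% ± 6.88 (SD over members, n = 871), 49.8% in late gains not kept and 56.4% in peaks called at all times. Of the 17 motifs searched, AP1 and the GC box were those whose interval excluded 0 with the same sign in both windows. No correction for the 17 motifs was made.

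**Figure D4:**
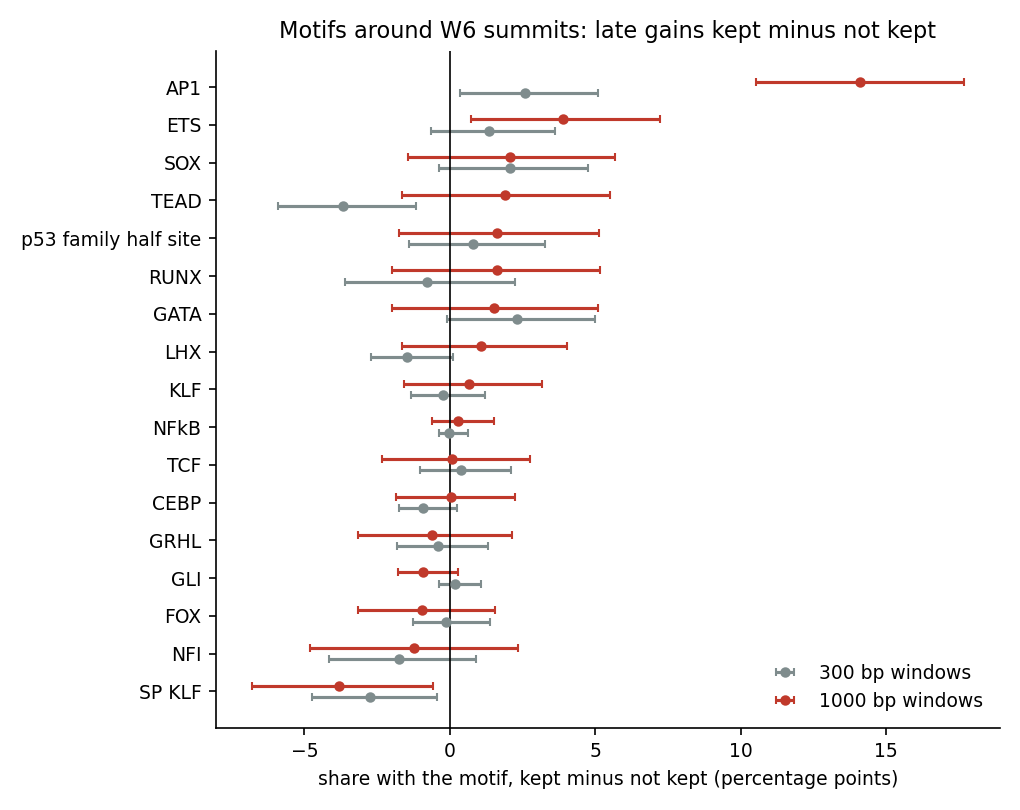
Share of late gains kept at W12 minus share of late gains not kept with each of 17 motifs, in percentage points, with 95% Newcombe intervals, in windows of 300 bp (grey) and 1000 bp (red) around the W6 summit. AP1 in 1000 bp windows, at 14.1 points, lies apart from the other motifs, whose differences stay between -3.79 and 3.89.

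Members of high fold lay near genes of varied function. An intergenic peak of 4725 bp stood 29421 bp downstream of a start site of *Adgrb1*, an adhesion G protein-coupled receptor, with folds of 19.1 at W6 and 18.4 at W12, the highest of the set on both. An intronic peak 3363 bp into *Pdcl2*, a phosducin-like protein, had folds of 14.3 and 7.79 and gained its H3K4me1 domain at W1. A peak over the CpG-rich start site of *Faim*, an inhibitor of apoptosis, had folds of 18.5 and 5.67, with 72% GC. At *Rin2*, an exchange factor for RAB5, a peak 1169 bp from the start site had folds of 7.75 and 14.2.

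Of the 10 with the largest geometric mean of both folds, 5 more lay beside *4933415F23Rik* (8.35 and 13.5), *Prim2*, a primase subunit (13.7 and 7.08), *Myc* (5.37 and 17.7), the chromatin regulator gene *Ankrd11* (6.56 and 14.2) and the ciliary GTPase gene *Arl13b* (7.16 and 12.8). The *Myc* peak was 748604 bp from the *Myc* start site, and nearest gene here says no more than distance. At *Ankrd11* and *Arl13b* 51.3% and 50% of the summit window was annotated repeat.

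The 871 members had 767 protein-coding genes as nearest gene, which is 6.68% of the 11484 genes nearest to any W6 peak. The median distance to the gene's start site was 25260 bp, and 148 members (17.0%) were over 100 kb away. Of these genes, 680 had 1 member, 73 had 2, 11 had 3 and 3 had 4. *Adgrl2* (a latrophilin), *Shroom3* (a regulator of apical constriction) and *Tubd1* (delta-tubulin) had 4 each. At *Adgrl2* the folds ran from 4.77 to 7.10 at W6 and from 4.25 to 5.67 at W12, and at *Shroom3* from 5.37 to 5.96 and from 6.38 to 9.21. *Prim2* and *Elk3*, an ETS repressor, were the strongest of those with 3. At *Elk3* the folds were 4.77 at W6 and 14.9 at W12 at 562 bp from the start site, in a window with an H3K4me1 domain at D0 and W2 alone of the 5 times, and 7.16 and 7.08, and 4.17 and 7.08, within introns.

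The 4 members counted for *Tubd1* lay inside introns of *Vmp1*, a gene of autophagy, upstream of *Mir21a*, the microRNA gene within the end of *Vmp1*. Their distances from the *Mir21a* start site were 6092, 6919, 8412 and 14162 bp. In that order their W6 folds were 4.77, 7.08, 4.17 and 5.96, and their W12 folds 4.25, 5.67, 9.21 and 6.38. An acetylated peak just upstream of *Mir21a* was called at every time, with folds of 25.3 at D0, 19.2 at W1, 21.8 at W2 and 26.2 at W12. At W6 a single peak of 15223 bp ran from 4.79 kb upstream to 10.4 kb downstream of the *Mir21a* start site, with a fold of 41.2. It also spans downstream positions where separate peaks were called at the other times, so its fold cannot be set beside theirs. All 4 members overlapped H3K4me1 domains at all 5 times.

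**Figure D5:**
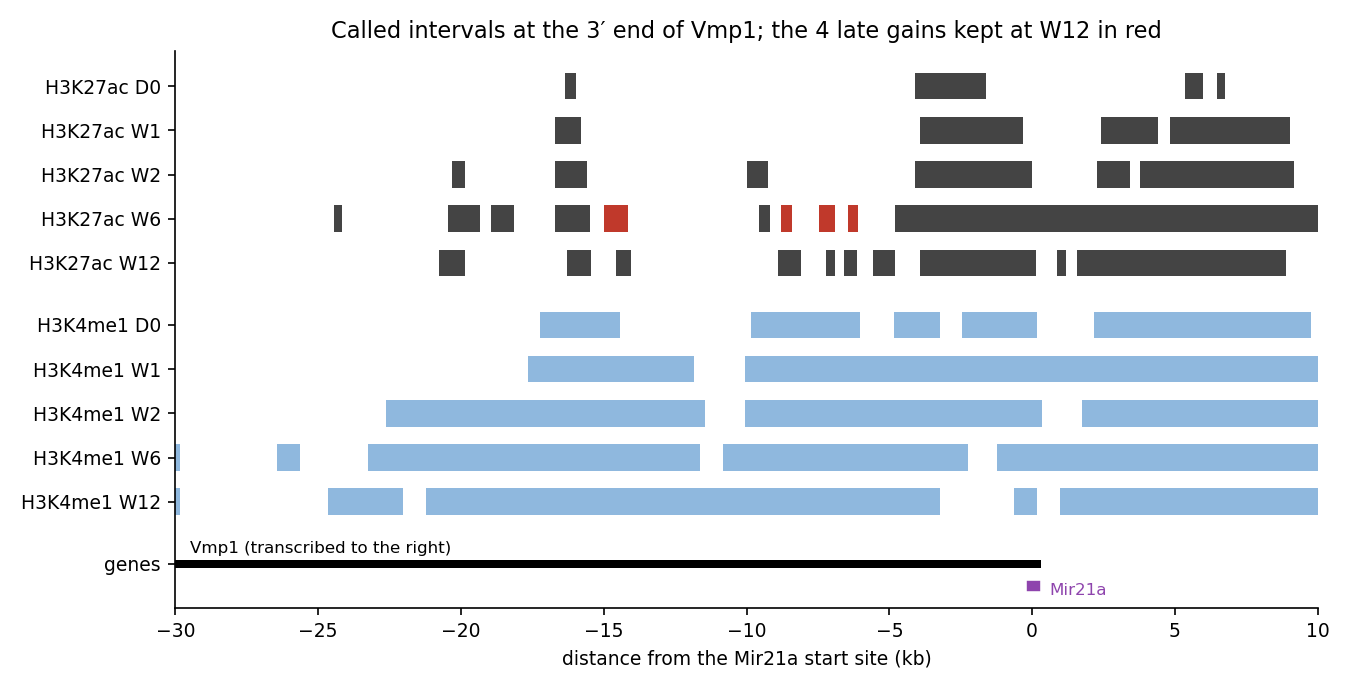
Called H3K27ac peaks (dark, members red) and H3K4me1 domains (blue) at each time, by distance from the Mir21a start site in kb, upstream to the left, with Vmp1 as a black line. The near ends of the 4 members lie 6.09 to 14.2 kb upstream, no dark bar of D0, W1 or W2 reaches their positions, W12 bars do, and blue bars overlap them at every time.

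Genes of hair follicle and epidermal identity were both represented. Of 12 hair follicle stem cell genes nearest to any W6 peak, 4 were nearest to a member (33.3%). *Tcf4*, a basic helix-loop-helix factor gene, had a member at a start site with folds of 5.37 and 7.08, *Foxp1* had intronic ones with 4.17 and 6.38 and with 4.77 and 3.54, and *Nfib* one with 4.77 and 4.96. *Isl1* was the fourth. Of 19 epidermal identity genes 4 were (21.1%). *Klf4* had folds of 8.85 and 4.96 at 485480 bp, *Klf5* 5.96 and 6.38 at 89881 bp and 5.21 and 5.67 at 34318 bp, and *Grhl2* 5.37 and 4.25 at 66291 bp and 3.58 and 7.08 in an intron. *Notch1* was the fourth. The background over all genes is the 6.68% above, but genes with many W6 peaks have more chances to be nearest to a member, and no test was made. Counted by peaks, members were 5 of the 146 W6 peaks nearest to the hair follicle genes. They were 6 of the 237 nearest to the epidermal genes. Both shares lie near the 2.85% of all W6 peaks that were members.

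*Runx1* and *Runx2* were the 2 of 4 RUNX genes nearest to members, with 3 and 2 peaks. At *Runx1*, needed in hair follicle stem cells, folds were 5.37 and 5.67 at 88969 bp upstream, 5.37 and 5.66 at 176586 bp upstream, and 4.13 and 4.25 in an intron. At *Runx2* a neighbouring pair of intronic peaks had 6.56 and 9.10, and 7.03 and 6.38. All 5 peaks overlapped H3K4me1 domains at every time, counted from 1 bp of overlap. At D0 a domain covered only 19.8% of the *Runx1* peak at 88969 bp. It covered 14.4% of the *Runx2* peak with a W6 fold of 6.56. Both peaks were covered to 100% from W1 on. The *Runx1* peak at 88969 bp shared only 25 bp with its W12 peak and lay 51 bp from an earlier peak. Of 12 AP1 genes only *Batf* was nearest to a member, with 4.77 and 5.67. Counted by peaks, members were 5 of 62 W6 peaks nearest to RUNX genes and 1 of 68 nearest to AP1 genes.

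Among signalling genes, 3 of 12 NF-κB genes were nearest to a member: *Nfkbiz*, a nuclear inhibitor family member (6.56 and 9.92), *Nfkb1* (5.96 and 5.67, and 4.77 and 4.25) and *Rel* (4.17 and 4.25). Of 12 genes for EGF receptors and ligands, 4 were, all of them ligands: *Ereg* (5.96 and 4.96), *Btc* (4.17 and 5.67), *Nrg1* (4.17 and 4.96) and *Tgfa*. Wnt and TCF genes had 3 of 23 (*Tcf7l2* with 4.77 and 10.6 and with 4.17 and 4.57, *Nkd2* with 4.77 and 6.38, and *Wnt5b*). TGF-β and BMP genes had 3 of 22, namely the activin subunit gene *Inhba* (7.75 and 7.79, 627314 bp away), *Ltbp1* (5.96 and 4.96) and the receptor gene *Bmpr1b* (5.37 and 4.96). The hedgehog genes had 1 of 12, the co-receptor gene *Gas1* (8.35 and 4.96, 110611 bp upstream). Counted by peaks, members were 4 of 74 W6 peaks nearest to NF-κB genes and 4 of 68 nearest to EGF genes. They were 4 of 133 for Wnt and TCF, 3 of 134 for TGF-β and BMP and 1 of 74 for hedgehog genes.

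Matrix genes had 4 of 19, *Plau* (5.96 and 5.67) and *Col18a1* (5.96 and 4.96) leading, with *Lama5* and *Lamc1*. Stress keratins had 2 of 6. *Krt16* had a member 631 bp upstream of its start site (5.37 and 5.67), and *Krt6a* one 5434 bp away whose first H3K4me1 domain was at W2 (4.77 and 3.54). The keratinocyte cytokines *Il20* (6.56 and 7.08) and *Il33* (4.53 and 7.08) made up 2 of 23, *Myc* and *E2f3* 2 of 23 cell cycle genes and oncogenes, *Tek* 1 of 16 angiogenesis genes and *Cdh13* 1 of 7 EMT genes and cadherins. Counted by peaks, members were 4 of 100 W6 peaks nearest to matrix genes and 2 of 10 nearest to stress keratins. They were 2 of 82 for cytokines, 3 of 103 for cell cycle genes and oncogenes, 1 of 72 for angiogenesis and 2 of 35 for EMT genes. Of the immune, endothelial, mesenchymal and melanocytic or neural lists, 0 of 3, 0 of 3, 0 of 3 and 0 of 5 genes were nearest to a member. These 4 lists had only 5, 15, 3 and 19 W6 peaks.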

How the data were processed

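The series has 38 MINT-ChIP samples in 16 groups, libraries of a high or a low MNase digest, and the H3K27ac and H3K4me1 lists made from them were used. As the study's methods say, the authors aligned reads to GRCm38/mm10 with Bowtie2 (2.2.9 per the processing notes), removed duplicates with Picard, merged replicates, and called H3K27ac peaks with MACS2 (2.1.1) and H3K4me1 domains with epic2. The culture lists have the layout of MACS2 broad peaks, and their caller is not given separately in the sources used here. The deposited H3K27ac and culture lists hold, per interval, fold (a ratio over local background), −log10 p and q, and a score. The deposited skin H3K4me1 lists hold a p-value per domain. Total H3 and 14 barcode files were not used here.

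Peaks on 21 chromosomes were compared by overlap of at least 1 bp, with Python 3.11.15, numpy 2.4.6, pandas 2.3.3 and scipy 1.17.1, by functions tested on simulated data. Pileups were read where folds lay within 0.002 of a step of the list. Distances were to 77221 start sites of GENCODE M21. Sequences are from GRCm38.p6 of RefSeq, and motifs were searched on both strands. Shares carry exact 95% Clopper-Pearson intervals and differences Newcombe intervals.

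The members, gene lists and motifs were chosen with earlier results of these data known. The genes named were the 10 members with the largest geometric mean of both folds, the 5 members of largest W6 fold with H3K4me1 at W6 or W12 only, the 5 genes with most members, and up to 3 genes of each list with their folds, with any further listed gene by name alone. Windows printed were fixed by the same rule, except the AP1 flanks. Some results of these rules are not reported here.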

Additional observations from a re-analysis of the deposited data

How the results depend on the processing

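No paired analysis was possible because each mark and time has 1 list of merged replicates, and leaving out a replicate could not be done for the same reason. Of 210 recomputed values, 170 stayed within the interval of the main value (for counts, within 1.5 times). The difference in AP1 share within 500 bp of the summit stayed between 12.6 and 16.4 points under all alternatives that were run on it. The culture and distal differences kept their sign in all that were run on them. The interval of the AP1 difference in 300 bp windows included 0 in 4 settings, among them lists of equal length (1.78 points, -0.49 to 4.36) and peaks over 2500 bp from a start site (1.43, -1.10 to 4.30).

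Limiting every list to peaks above its median score left 521 members. H3K4me1 shares from D0 to W12 were then 93.3%, 94.2%, 96.9%, 97.9% and 96.9%, their differences from late gains not kept were 0.54 points at W1 and 2.69 at W2, the culture difference was 6.15, the distal share 62.0%, the distal difference 14.8 and the RUNX difference 2.95. Without an earlier peak within 1000 bp there were 554 members, with shares of 79.4%, 79.2%, 83.4% and 94.2% at D0, W1, W2 and W6 and a distal share of 83.0%. Joining peaks under 1000 bp apart gave shares of 82.1% at D0 and 86.1% at W2 and a distal share of 82.7%.

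The next settings were chosen after seeing the data. A W6 pileup of at least 8 fragments, which drops peaks whose pileup could not be read, left 408 members. Shares were 89.2% at W1 and 96.1% at W12, and differences of H3K4me1 were -4.36 points at D0 and -3.80, -1.21 and -0.25 from W2 to W12, the last pair of opposite sign to the main values. The distal difference was 13.7 and the RUNX difference 2.28. Leaving out windows of 50% or more repeats gave shares of 88.0%, 91.0%, 98.2% and 96.5% from W1 to W12. Among peaks over 2500 bp from a start site the culture difference was 14.8.

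The distal share was 86.6% with a limit of 1000 bp, 51.7% with 10000 bp and 86.0% with start sites of protein-coding genes. Windows of 1000 bp gave differences of 14.1 points for AP1 and 1.91 for TEAD, the latter of opposite sign. Counting genes with a start site within 50 kb of a member gave 1165 in place of 767. The cause of these changes was not tested. With backgrounds of 0.299 to 0.677 fragments, weak peaks of earlier lists can have gone uncalled.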
